A study of Homo sapiens with 52 samples.

Results

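The small structured RNAs followed here were the 5 genes with the symbols RN7SL1, RN7SL2, RN7SK, RMRP and RPPH1, of 59408 genes listed in every deposited table of RNA-seq on WI-38 cells, a line of normal human embryonic lung fibroblasts. RN7SL1, a gene for the 7SL RNA, was chosen by its log2 fold change against untreated cells, which was below 0 in all 25 distinct tables, and the other 4 were followed because they are also made by RNA polymerase III (Pol III). The cells were wild type, and were exposed for 24 h to 0.009% sodium dodecyl sulfate (SDS; PMD-Sen, senescence after plasma membrane damage), to medium with 75 mM KCl (Ca2+-Sen, senescence after calcium influx) or to 250 nM doxorubicin (DXR; DDR-Sen, senescence after DNA damage), then washed and collected on day 0, the end of the exposure, and on days 1 to 4, 6, 8 and 16. Replicatively senescent cells (RS) had been passaged to a population doubling level of about 52, and the untreated cells of all comparisons were at levels of 32 to 46. There were 52 labelled libraries, in 26 groups of 2. The methods describe the libraries of a group as independent samples but do not say whether these were separate cultures, so the p-values measure the spread between such samples. As these are bulk samples of 1 cell line, fewer cells of a type and less RNA per cell cannot be told apart.

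7SL RNA is the scaffold of the signal recognition particle (SRP), which binds ribosomes that make secreted and membrane proteins and brings them to the endoplasmic reticulum. 7SK RNA holds the elongation kinase P-TEFb (CDK9 with a cyclin T) in an inactive complex with HEXIM, LARP7 and MEPCE proteins. RMRP is the RNA of RNase MRP, which cuts the precursor of ribosomal RNA, and RPPH1 is the RNA of RNase P, which removes the leader of transfer RNA precursors. All are abundant in growing cells, are transcribed by Pol III and have no poly(A) tail. The labels give total RNA as the extracted molecule and the paper calls the assay mRNA-seq, but how mRNA was enriched, by poly(A) selection or otherwise, is not given in the sources used here. A level in these libraries therefore cannot be read as the amount of such an RNA in the cell.

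RN7SL1, RN7SL2 and RN7SL3 are near-identical copies that all encode 7SL RNA, and the genome also holds many 7SL pseudogenes. How reads that match more than 1 copy were counted is not given in the sources used here, so the split of 7SL reads between these genes is uncertain.

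The sequence of RMRP is shown because it was the only member beside RN7SL1 with reads, and because the annotation holds it on 2 overlapping entries (chr9:35657751-35658018 and chr9:35657754-35658017, both minus strand). It was read from the GENCODE v29 transcripts (GRCh38) and is written 5′ to 3′. Its capitals mark the 1 base at the 5′ end and the 3 bases at the 3′ end that belong to the longer entry alone.
RMRP: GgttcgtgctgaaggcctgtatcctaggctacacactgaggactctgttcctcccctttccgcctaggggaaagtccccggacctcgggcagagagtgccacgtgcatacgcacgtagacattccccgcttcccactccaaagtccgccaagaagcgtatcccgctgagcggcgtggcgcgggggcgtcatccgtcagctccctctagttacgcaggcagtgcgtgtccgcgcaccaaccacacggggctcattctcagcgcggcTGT

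Of the 5 members, 2 had reads. RN7SL1 was read in every library recovered, RMRP gave a handful of reads per library, and RN7SL2, RN7SK and RPPH1 were listed at 0 in all 25 tables. Levels are given as normalized counts on the scale of the RS table, where 1 normalized count is 1 read in a library of 29.1 M counted reads (M, 1e6). A gene was tested where its mean level over the 26 groups was at least 10, which kept 15479 genes and, of the members, RN7SL1 alone.

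RN7SL1 lay at 1916 and 2074 normalized counts in the 2 untreated libraries, from 1235 and 1098 reads. In the deposited tables it was below untreated in 25 of 25, with a median log2 fold change of -1.90, that is 26.8% of the untreated level (range 19.0% to 65.2%). As the gene was chosen for this pattern, these values are a description and carry no test. As background, the share of tested genes with a lower call (adjusted p under 0.05) was 9.10% in PMD-Sen, 9.37% in Ca2+-Sen, 11.1% in DDR-Sen and 11.0% in RS. The 2 libraries of a group were recovered for 24 of the 25 treated and RS groups, and all 48 of those libraries, between 347 and 1485 normalized counts from 270 to 2258 reads, lay below both untreated libraries. The gene was chosen on fold changes of these same libraries. How many of all tested genes are set apart in this way was not counted. In reads per M counted reads, a scale that does not use the size factors of the tables, RN7SL1 stood at 65.8 and 71.2 in the untreated libraries and between 11.9 and 49.9 in the others (median 18.3). Over the 24 recovered and the untreated groups the pooled SD between the 2 libraries of a group was 0.27 on the log2 scale.

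In PMD-Sen the 16 libraries lay between 351 and 593 normalized counts of RN7SL1. On day 0 its libraries were at 588 and 593 normalized counts, on day 1 at 367 and 434, on day 2 at 368 and 388, and on day 3 at 351 and 478. They were at 469.9 and 506 on day 4, at 476 and 481 on day 6, at 424 and 488 on day 8 and at 439.8 and 543 on day 16. The log2 fold change against untreated went from -1.76 (SE 0.14) on day 0 to -2.40 (SE 0.12) on day 2, and was -2.02 (SE 0.18) on day 16.

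In Ca2+-Sen the libraries lay between 405 and 636 up to day 4. The libraries were at 435 and 498 normalized counts on day 0, at 407 and 495 on day 1, at 457 and 636 on day 2, at 405 and 408 on day 3 and at 540.2 and 587 on day 4. On day 6 the pair split into 555 and 979.5, the wider spread behind the SE of 0.24 of that day's log2 fold change of -1.38. Day 8 was the highest of all treated groups, at 1169 and 1430.0 with a log2 fold change of -0.62 (SE 0.13), and day 16 was back at 514 and 582 with -1.86 (SE 0.13).

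In DDR-Sen the day 0 level was the second lowest of all groups, and the day 6 level the highest of that inducer. Its libraries were at 347 and 417 normalized counts on day 0, at 359 and 703 on day 2, at 635 and 750.1 on day 3, at 823 and 997 on day 4 and at 1119 and 1122 on day 6. They were then at 712 and 727 on day 8 and at 844 and 849 on day 16. On day 1 only the group level of 535 is known, because more than 1 split of the reads fitted the table. The log2 fold change went from -2.38 (SE 0.15) on day 0 to -0.83 (SE 0.12) on day 6 and was -1.24 (SE 0.14) on day 16, and the unlike pair of day 2 gave the largest error of any table, -1.91 (SE 0.47).

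RS was at 823 and 1485 normalized counts, a log2 fold change of -0.79 (SE 0.30), and its lower library lay within the range of DDR-Sen while its higher one was the highest of any group except the untreated cells.

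**Figure D1:**
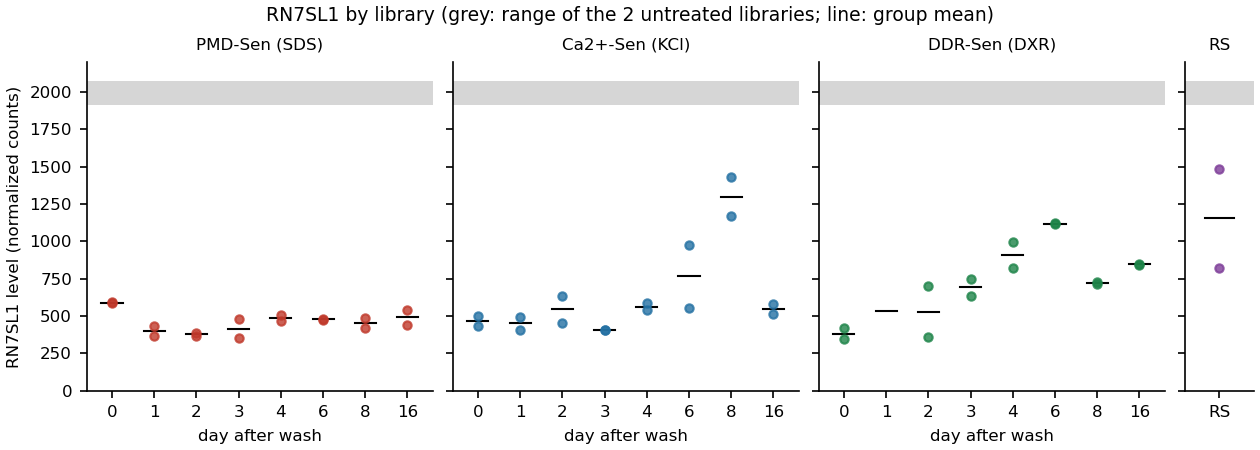
RN7SL1 level in normalized counts (vertical axis) by day after the wash (horizontal axis) in PMD-Sen, Ca2+-Sen, DDR-Sen and RS; each point is 1 library, the black line is the group mean, and the grey band is the range of the 2 untreated libraries (1916 to 2074). All 48 points lie below the band, and DDR-Sen day 1 has only its group level of 535.

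Ordered by group level, RN7SL1 ran from PMD-Sen day 2 (378 normalized counts), DDR-Sen day 0 (383) and PMD-Sen day 1 (398) up to DDR-Sen day 6 (1121), RS (1154), Ca2+-Sen day 8 (1300.2) and the untreated cells (1995). Of the 25 steps between neighbours in this order, 2 were larger than the pooled SD of 0.27. These were the step of 0.30 on the log2 scale from DDR-Sen day 4 (911) to DDR-Sen day 6, and that of 0.62 from Ca2+-Sen day 8 to the untreated cells. All other neighbours differed by less than that spread.

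RN7SL1 was far down the range of all genes, but not alone there. In each table, between 0.207% and 11.5% of tested genes had a log2 fold change as low or lower (median 1.29%). Of the 15479 tested genes, 678 (4.38%) were below untreated in all 25 tables, and 111 had a median at or below that of RN7SL1, itself included. All tables share the 2 untreated libraries, so agreement between tables is in part agreement of one pair of libraries with itself. Those libraries were also the smallest, at 15.4 and 18.8 M counted reads, against 19.1 to 58.0 M for the others, and the part of depth in the RN7SL1 values was not tested. Setting the scale by library totals or by the median gene moved no table by more than 0.07 on the log2 scale and left RN7SL1 lower in 25 of 25.

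The labelled cell type was checked by markers. All 10 fibroblast markers passed the filter, with a summed level of 746955 normalized counts in untreated cells and 308336 to 788255 in the other groups, lowest in Ca2+-Sen on day 0. Of the 4 epithelial markers 2 passed, summing to 2985 in untreated cells and 1752 to 4644 in the others, and EPCAM and CDH1 had means of 9.76 and 4.39. The 3 endothelial markers summed to 46.4 and 32.4 to 219.7, and the 3 white blood cell markers to 27.8 and 17.6 to 259. Of the 80 pairs of fibroblast marker and table per inducer, 36 were called lower in PMD-Sen, 25 in Ca2+-Sen and 28 in DDR-Sen, and 8, 15 and 9 higher, while RS had 2 lower and 3 higher of 10. In the order of the 3 inducers, 45%, 31.25% and 35% were called lower, against 9.10%, 9.37% and 11.1% of all tested genes. Called higher were 10%, 18.75% and 11.25%, against 8.62%, 7.98% and 8.79%. For RS the shares were 20% lower and 30% higher, against 11.0% and 11.2%. CD14, the white blood cell marker that passed the filter, was called higher in 6 of 25 tables, with log2 fold changes of 3.23 in Ca2+-Sen on day 8 and 3.20 in RS, where RN7SL1 was at 1300.2 and 1154 normalized counts. It was also 3.14 in PMD-Sen and 3.07 in DDR-Sen on day 16, where RN7SL1 was at 491 and 846. PTPRC and CD68, the other white blood cell markers of the list, had means of 6.80 and 2.27 normalized counts. No marker was at 0 in every group, and the part of other cells or of these changes in the RN7SL1 values was not tested.

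The inducers were compared with each other on the same day. The choice of RN7SL1 asked for fold changes below 0, not for differences between inducers. The comparisons nevertheless rest on those same fold changes, and the members were chosen with earlier results of these data known. Of 24 comparisons (3 pairs of inducers on 8 days), 9 were called at an adjusted p under 0.05, and 14 once the error of the untreated libraries, which both sides share, was taken out of the difference. Over all tested genes, 6.26% of comparisons were called between DDR-Sen and PMD-Sen, 6.16% between Ca2+-Sen and PMD-Sen and 7.47% between DDR-Sen and Ca2+-Sen. RN7SL1 was called in 4 of 8, 1 of 8 and 4 of 8 of these.

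DDR-Sen against PMD-Sen changed direction with time. On day 0 RN7SL1 was lower in DDR-Sen, at 383 against 591 normalized counts, a log2 difference of -0.63 (95% interval -1.03 to -0.23, adjusted p = 0.0102). From day 3 it was higher in DDR-Sen, by 0.74 (0.32 to 1.16, adjusted p = 0.0319) on day 3, by 0.90 (0.55 to 1.25, adjusted p = 0.000187) on day 4 and by 1.23 (0.84 to 1.61, adjusted p = 3.26e-07) on day 6. In each of these 4 comparisons the 2 libraries of one inducer lay outside the range of the other. The differences of 0.65 on day 8 (0.25 to 1.05, adjusted p = 0.142) and 0.79 on day 16 (0.34 to 1.23, adjusted p = 0.184) missed the threshold, as did 0.43 on day 1 and 0.49 on day 2 (-0.46 to 1.43). Of these, days 1, 8 and 16 passed it with the error of the untreated libraries taken out of the difference.

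Ca2+-Sen against PMD-Sen was called on day 8, at 1300.2 against 458 normalized counts, a log2 difference of 1.51 (95% interval 1.12 to 1.89, adjusted p = 5.18e-11). On day 6 the difference was 0.68 (0.13 to 1.24), with the 2 Ca2+-Sen libraries far apart, and it was not called. On day 16 it was 0.16 (-0.27 to 0.59), an interval that holds both no difference and an excess of 0.59 in Ca2+-Sen. With the error of the untreated libraries taken out of the difference, day 0 at -0.33 (adjusted p = 0.0336) and day 2 at 0.53 (adjusted p = 0.00386) were called as well, on the errors of the DESeq2 fits.

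DDR-Sen exceeded Ca2+-Sen by 0.78 (0.40 to 1.15, adjusted p = 0.00543) on day 3, by 0.70 (0.34 to 1.05, adjusted p = 0.0130) on day 4 and by 0.63 (0.25 to 1.00, adjusted p = 0.0211) on day 16. On day 8 the order was turned, with DDR-Sen at 719.8 and Ca2+-Sen at 1300.2 normalized counts, a log2 difference of -0.85 (-1.21 to -0.49, adjusted p = 0.000275). Days 0, 1, 2 and 6 were not called, with differences of -0.29, 0.25, -0.04 and 0.54.

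Within an inducer, day 16 was compared with day 0. In DDR-Sen RN7SL1 rose by 1.15 on the log2 scale (95% interval 0.75 to 1.54, adjusted p = 8.01e-07), from 383 to 846 normalized counts. In PMD-Sen the difference was -0.27 (-0.71 to 0.18, adjusted p = 0.461) and in Ca2+-Sen 0.23 (-0.13 to 0.58, adjusted p = 0.384). Over all tested genes, 12.1% were called in DDR-Sen, 27.0% in PMD-Sen and 32.9% in Ca2+-Sen, so RN7SL1 moved in the inducer in which the fewest genes did. Whether the 3 inducers differ in this change was not tested.

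**Figure D2:**
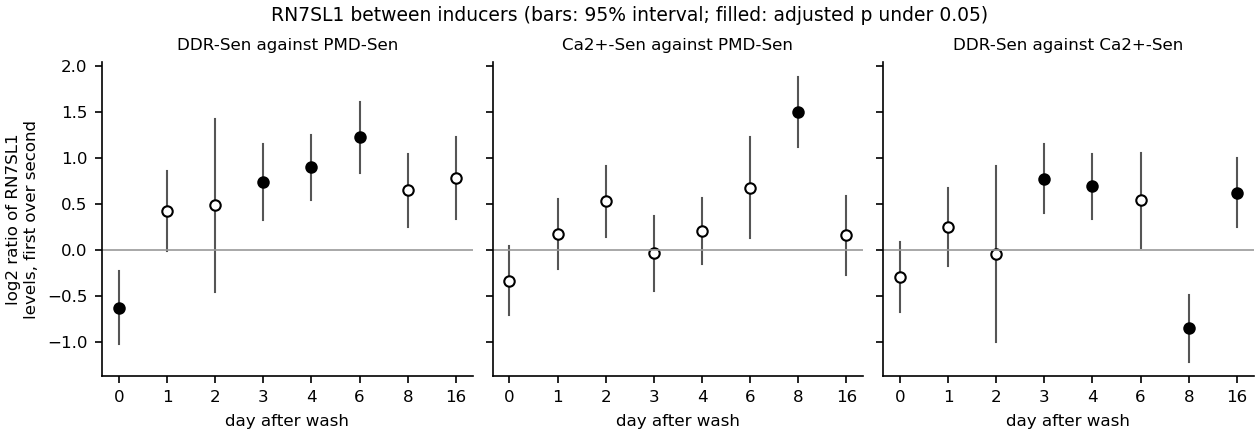
Log2 ratio of RN7SL1 levels between a pair of inducers (vertical axis, first named over second) by day after the wash (horizontal axis), in 3 panels; points are estimates, bars 95% intervals, and filled points have an adjusted p under 0.05. The 9 filled points are 4 in the first panel, 1 in the second (1.51 on day 8) and 4 in the third.

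RMRP, the RNA of RNase MRP, was also below untreated in 25 of 25 tables, but on reads too few to test. Its untreated libraries held 11 and 4 reads (17.1 and 7.55 normalized counts), and the 50 other libraries 0 to 18 reads (0 to 15.7 normalized counts, median 3.28). Of those 50 libraries, 46 lay below both untreated libraries, 4 lay between them and 0 above, and 3 held no read. How many of all genes are set apart in this way was not counted, and all groups share the same untreated pair. The 4 between were 1 library each of PMD-Sen day 16 (15.7), Ca2+-Sen day 0 (12.8), DDR-Sen day 1 (8.80) and DDR-Sen day 2 (7.57), and in each of these groups the second library was lower, at 1.03 to 3.88.

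The RMRP log2 fold changes ran from -4.45 (PMD-Sen day 1, where the libraries held 0 and 1 read) to -0.33 (PMD-Sen day 16), with a median of -1.59 and standard errors of 1.13 to 1.94. The deposited DESeq2 p-value was under 0.05 before adjustment in 1 of 25 tables (PMD-Sen day 1), and after adjustment with no filter on the mean it passed in 0 of 25. A change of RMRP was thus not detectable at these read counts. The part of its overlapping annotation entries in these counts was not tested. With a mean of 4.23 over the groups, RMRP was left out of the comparisons between inducers.

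RN7SL2, RN7SK and RPPH1 gave no value in any table, and the other entries at their positions gave little. RN7SL2 lies in an intron of the long noncoding RNA gene AL627171.2 on the same strand, which held 12 and 5 reads in the untreated libraries and log2 fold changes of -1.19 to 0.74, with 0 tables called and 0 under 0.05 by the unadjusted DESeq2 p-value. The exons of that gene do not cover RN7SL2. RN7SK (chr6:52995621-52995948, plus strand) is covered by a second annotation entry that has no line in the tables, while a gene listed as 7SK held 0 to 3 reads per library. RPPH1 (chr14:20343075-20343407, minus strand) lies within an exon of AL355075.4 on the same strand, which held 0 to 3 reads per library. These 3 overlapping genes were looked up after the zeros had been seen. RN7SL1 itself is fully covered on the same strand by an exon of another annotation entry, AL139099.4, which has no line in the tables. The part of that entry in the RN7SL1 counts was not tested. RN7SL1 also lies in an intron of the ribosomal protein gene RPS29 on the opposite strand, chosen in the same way. The log2 fold changes of RPS29 ran from -0.38 to 0.33, with 0 tables called lower (2 by the unadjusted DESeq2 p-value) and 1 higher.

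RN7SK, RMRP and RPPH1 are alike in sequence make-up. They are 268 to 333 bases long with 58.2% to 64.6% G and C, and none holds a run of A longer than 3 bases. BCYRN1, the Pol III transcript known as BC200, is 200 bases long, is 53% G and C, and holds a run of 11 A. It was the best measured of the other Pol III RNAs, at 693.5 and 795 normalized counts in the untreated libraries.

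The protein-coding genes that start beside RMRP and RPPH1 in the opposite direction were read well. CCDC107 starts 272 bases from the start of RMRP and had a median log2 fold change of 0.21, with 2 of 25 tables called lower and 0 higher. PARP2, a DNA repair enzyme, starts 175 bases from the start of RPPH1 and had a median of -0.42. It was called lower in 6 tables, among them DDR-Sen day 0 at -1.18 (SE 0.20, adjusted p = 4.01e-08), and higher in 1, PMD-Sen day 0 at 0.55 (SE 0.19, adjusted p = 0.0127).

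The list of other Pol III RNAs (RN7SL3, vault, Y and U6 RNAs, BCYRN1 and the numbered 7SL, 7SK and U6 copies) held 2257 symbols, of which 2256 were listed, 1074 were at 0 in every table and 9 passed the filter on the mean. Of the 72 pairs of gene and table per inducer, 3 were called lower and 1 higher in PMD-Sen, 4 and 5 in Ca2+-Sen, 5 and 0 in DDR-Sen (6 and 0 by the unadjusted DESeq2 p-value), and of 9 pairs in RS 0 and 0 (also unadjusted). That is 4.17% called lower in PMD-Sen, 5.56% in Ca2+-Sen and 6.94% in DDR-Sen, below the 9.10%, 9.37% and 11.1% of all tested genes. Called higher were 8.62% of all tested genes in PMD-Sen, 7.98% in Ca2+-Sen, 8.79% in DDR-Sen and 11.2% in RS. Per table, the median log2 fold change of the 9 ran from -0.70 to 0.05, against -0.03 to 0.02 for all tested genes. Of the 9, 8 had means of 10.1 to 23.8 normalized counts, where a call needs a large change.

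RN7SL3, the remaining 7SL gene, followed RN7SL1 most closely of these RNAs. It held 32 and 24 reads in the untreated libraries (49.6 and 45.3 normalized counts), and 47 of 50 other libraries lay below both. The 3 above both were the pair of RS, at 53.9 and 58.5 normalized counts, and 1 library of DDR-Sen day 6, at 59.5. The share of all tested genes set apart in this way was not counted. The log2 fold change of RN7SL3 ran from -2.36 in Ca2+-Sen on day 0 (SE 0.66, adjusted p = 0.00116) to 0.24 in RS, with a median of -1.45. It was called lower in 7 tables (PMD-Sen days 2 and 8, Ca2+-Sen days 0 and 1, DDR-Sen days 0, 1 and 2) and higher in 0. In DDR-Sen its libraries went from 10.5 and 12.6 on day 0 to 35.6 and 59.5 on day 6, and in Ca2+-Sen from 8.84 and 9.64 on day 0 to 35.9 and 42.6 on day 8, the days on which RN7SL1 was highest in those inducers. Between inducers 0 of 24 comparisons of RN7SL3 were called, and 1 had an unadjusted p under 0.05 on the errors of DESeq2. With the error of the untreated libraries taken out of the difference, 1 of 24 was called (Ca2+-Sen against PMD-Sen on day 8, a log2 difference of 1.83, adjusted p = 0.0327) and 3 had an unadjusted p under 0.05, and outside these 24 a call was made for DDR-Sen day 16 against day 0 (2.83 times, adjusted p = 0.0474).

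The reads of RN7SL3 came to 2.19% and 2.59% of those of RN7SL1 in the untreated libraries, to 3.94% and 6.54% in RS, and to 1.45% to 8.32% in the libraries of the 3 inducers (medians 4.29% in PMD-Sen, 2.69% in Ca2+-Sen and 3.05% in DDR-Sen). Over the 26 groups its log2 level had a Pearson correlation of 0.74 and a Spearman correlation of 0.63 with that of RN7SL1. For the other 8 tested RNAs and RMRP the Pearson values ran from -0.04 to 0.33. These are descriptions, since all these genes share libraries and the untreated pair, and the 7SL copies possibly reads.

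RN7SL81P, a 7SL pseudogene (chr7:128761338-128761598, plus strand), was below untreated in 25 of 25 tables with a median log2 fold change of -1.01, and was called in 0, with 3 under 0.05 by the unadjusted DESeq2 p-value. It held 30 and 17 reads in the untreated libraries (46.5 and 32.1 normalized counts), and 47 of 50 other libraries lay below both. Here too the share of all tested genes set apart in this way was not counted. RN7SL81P sits in an intron of CALU on the same strand, a gene of the secretory pathway looked up for this overlap after the values were seen. CALU stood at 51877 normalized counts on average with a median log2 fold change of -0.10. RNU6-516P, a U6 copy, had 4 reads in each untreated library and a median of 0.83, with 1 table called higher. Its untreated level of 6.86 normalized counts was below the filter, which it passed by higher levels in other groups (mean 13.3). Its higher direction is therefore in part set by the filter and is not read as a result. RN7SKP16, a 7SK pseudogene named after its values were seen, was called in 0 tables, also by the unadjusted DESeq2 p-value, with a median of -0.47 and a range of -1.30 to 0.05.

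BCYRN1, also named after its values were seen, showed no common direction. Its log2 fold change was -1.98 in Ca2+-Sen on day 0 (SE 0.18, adjusted p = 6.2e-27), where the libraries fell to 185 and 191 normalized counts, and it rose to 0.84 in Ca2+-Sen on day 3, where they stood at 1206 and 1464. It was called lower in 4 tables and higher in 5, with a median of 0.07. The list of Pol II transcripts without a poly(A) tail (TERC, spliceosomal RNAs other than U6, SNORD3A, SNORD118 and the SCARNA genes) held 42 symbols, 16 of them at 0 in every table and 0 above the filter, so it gave no comparison.

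**Figure D3:**
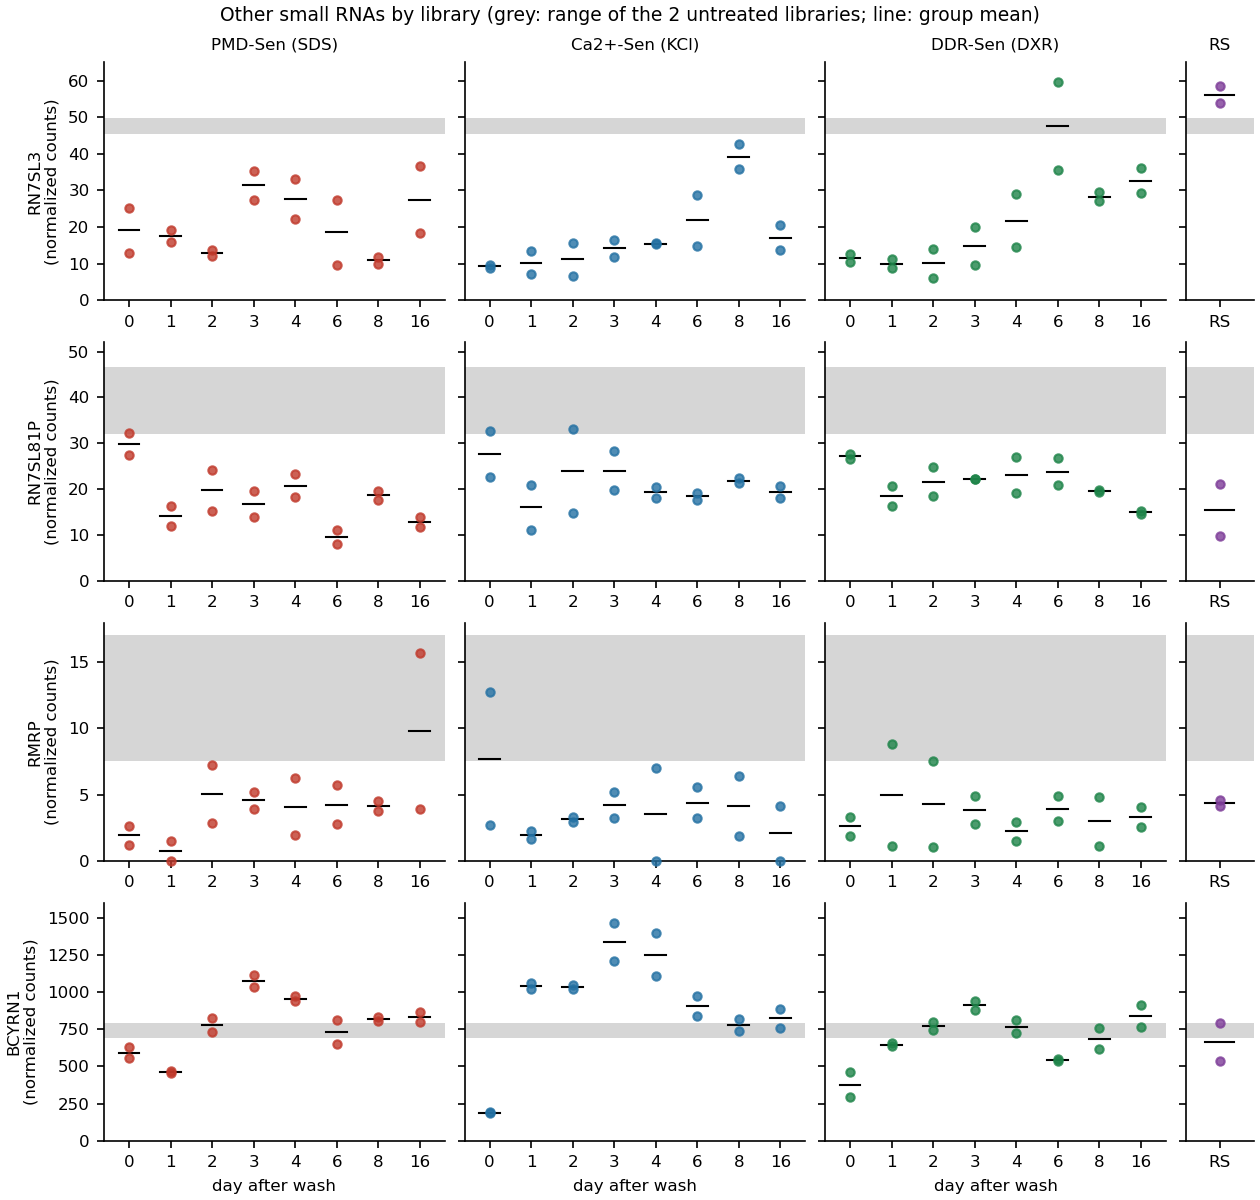
Levels of RN7SL3, RN7SL81P, RMRP and BCYRN1 in normalized counts (vertical axes, each from 0) by day after the wash (horizontal axes) in PMD-Sen, Ca2+-Sen, DDR-Sen and RS; points are libraries, black lines group means and grey bands the range of the 2 untreated libraries. Points of the first 3 RNAs lie mostly below the band (47, 47 and 46 of 50), while those of BCYRN1 lie on both sides of it. How many of all genes are set apart in this way was not counted.

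The lists of proteins that act with these RNAs are set against the shares of all tested genes given above (lower 9.10%, 9.37% and 11.1%, higher 8.62%, 7.98% and 8.79% in PMD-Sen, Ca2+-Sen and DDR-Sen). SRP proteins (8 genes, 64 pairs of gene and table per inducer) were called lower in 4 and higher in 7 pairs in PMD-Sen, in 4 and 7 in Ca2+-Sen, in 5 and 6 in DDR-Sen, and of 8 pairs in RS 0 and 0 (1 and 1 by the unadjusted DESeq2 p-value). In the order of the 3 inducers, 6.25%, 6.25% and 7.81% were called lower and 10.9%, 10.9% and 9.38% higher, the lower shares below those of all genes and the higher ones a little above. In PMD-Sen 6 of the 7 higher calls were on day 0, where 1 gene was called lower and the median log2 fold change of the list was 0.77. Of all tested genes the median log2 fold change was within 0.03 of 0 in every table. SRP9 and SRP14 form the part of the SRP that binds the Alu end of 7SL. SRP9 was called lower in 7 tables (median -0.21, and -0.57 with SE 0.11 and adjusted p = 2.25e-06 in DDR-Sen on day 0), and SRP14 was called higher in 10 (median 0.24, and 0.39 with SE 0.09 and adjusted p = 7.12e-05 in Ca2+-Sen on day 0). SRP72, which helps bind the other end of 7SL, was called lower in 5 tables and higher in 1, with a median of -0.15.

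Proteins of the 7SK complex (7 genes, 56 pairs per inducer) were called lower in 1 and higher in 5 pairs in PMD-Sen, in 2 and 4 in Ca2+-Sen, in 2 and 2 in DDR-Sen, and in 0 and 0 of 7 in RS (0 and 1 by the unadjusted DESeq2 p-value). The lower shares (1.79%, 3.57% and 3.57%) were below those of all genes, and the higher ones (8.93%, 7.14% and 3.57%) were near them in PMD-Sen and Ca2+-Sen and below in DDR-Sen. LARP7, which binds the 3′ end of 7SK, was called lower in 4 tables with a median of -0.22. HEXIM1, the inhibitor of P-TEFb within the complex, was called higher in 4 with a median of 0.23, as in PMD-Sen on day 1 at 0.52 (SE 0.11, adjusted p = 5.45e-05). CCNT2, a cyclin T, had a median of -0.20 with 1 table called, higher.

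Proteins shared by RNase P and RNase MRP (10 of 11 genes tested, 80 pairs per inducer) were called lower in 5 and higher in 5 pairs in PMD-Sen, in 8 and 2 in Ca2+-Sen, in 8 and 1 in DDR-Sen, and in 1 and 0 of 10 in RS. The lower shares (6.25%, 10% and 10%) were near those of all genes or below them, and the higher ones (6.25%, 2.5% and 1.25%) below. POP1, the largest protein of both enzymes, was called lower in 18 tables, among them all 8 of DDR-Sen, with a median of -0.69. It was at -1.14 (SE 0.16, adjusted p = 1.05e-11) on day 16 of DDR-Sen and at -1.25 (SE 0.20, adjusted p = 8.36e-09) in RS. RPP14 and RPP25L had medians of 0.31 and 0.35.

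The subunits of Pol III (11 genes, 88 pairs per inducer) were called lower in 5 and higher in 6 pairs in PMD-Sen, in 11 and 2 in Ca2+-Sen, in 12 and 2 in DDR-Sen, and in 1 and 0 of 11 in RS. As shares, 5.68%, 12.5% and 13.6% were called lower, the last 2 a little above all genes, and 6.82%, 2.27% and 2.27% higher, below all genes. The lower calls were not spread evenly over the days. In Ca2+-Sen 8 of the 11 were on day 8, where the median log2 fold change of the list was -0.33, and 3 on day 0. In DDR-Sen 4 of the 12 were on day 0 and 4 on day 16. POLR3G and POLR3GL are alternative forms of 1 subunit, the first found mainly in stem and tumour cells. POLR3G was called lower in 11 tables, at -2.29 (SE 0.26, adjusted p = 1.65e-17) in Ca2+-Sen on day 0 and at -1.28 (SE 0.26, adjusted p = 1.1e-05) in DDR-Sen on day 16, while POLR3GL was called lower in 2 and higher in 1 (median 0.28). POLR3E had the highest median, 2.51, from an untreated level of only 4.89 normalized counts and standard errors of up to 2.27, and was called higher in 5 tables. That untreated level was below the filter, which POLR3E passed by higher levels in other groups (mean 70.4). Its higher direction is therefore in part set by the filter.

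The transcription factors of Pol III (TFIIIA, TFIIIB, TFIIIC, SNAPc and their helpers, 18 genes, 144 pairs per inducer) were called lower in 1 and higher in 8 pairs in PMD-Sen, in 3 and 11 in Ca2+-Sen, in 12 and 2 in DDR-Sen, and in 1 and 0 of 18 in RS. Both the lower (0.694%, 2.08% and 8.33%) and the higher shares (5.56%, 7.64% and 1.39%) were below those of all genes. In Ca2+-Sen 8 of the 11 higher calls were on day 0. BDP1, a part of TFIIIB with a mean of only 16.4 normalized counts, had a median of -0.40 with 2 tables called lower. GTF3C3 and GTF3C4, parts of TFIIIC, had medians of -0.30 and -0.26, with 4 tables called lower for the first and 2 lower and 2 higher for the second.

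The list of Pol III regulators (7 genes, 56 pairs per inducer) was called lower in 15 and higher in 7 pairs in PMD-Sen, in 14 and 5 in Ca2+-Sen, in 27 and 3 in DDR-Sen, and in 2 and 1 of 7 in RS, with lower shares of 26.8%, 25% and 48.2% in the 3 inducers, above those of all genes. The higher shares were 12.5%, 8.93% and 5.36%, above those of all genes in PMD-Sen and Ca2+-Sen and below in DDR-Sen. RBL1, a pocket protein of cell cycle control, gave 7 of the 15 lower pairs in PMD-Sen, 7 of 14 in Ca2+-Sen and 8 of 27 in DDR-Sen. It was called lower in 23 of 25 tables (median -1.38, and -2.18 with SE 0.21 and adjusted p = 9.7e-24 in DDR-Sen on day 0). MAF1, the repressor that binds Pol III, was above untreated in 25 of 25 tables and called higher in 10, with a median of 0.24. It was at 1.13 (SE 0.11, adjusted p = 2.61e-24) in PMD-Sen on day 0. The share of all tested genes above untreated throughout was not counted, and all groups share the same untreated pair. SSB, the La protein that binds the U-rich ends of new Pol III transcripts, was called lower in 13 (median -0.28), as in DDR-Sen on day 16 at -0.53 (SE 0.12, adjusted p = 0.000103). MYC, which activates Pol III, was called lower in 9 tables and higher in 1.

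The 2 mitochondrial rRNAs, which mitochondria make with their own polymerase and give a short A tail, went the other way from RN7SL1. Of 16 pairs per inducer, 13 were called higher in PMD-Sen, 12 in Ca2+-Sen and 12 in DDR-Sen, and 0, 2 and 0 lower. Of all tested genes 8.62%, 7.98% and 8.79% had a higher call in these inducers. In RS 0 of 2 were called, with 1 higher by the unadjusted DESeq2 p-value. MT-RNR1 had a median of 0.45 and MT-RNR2 of 0.42.

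**Figure D4:**
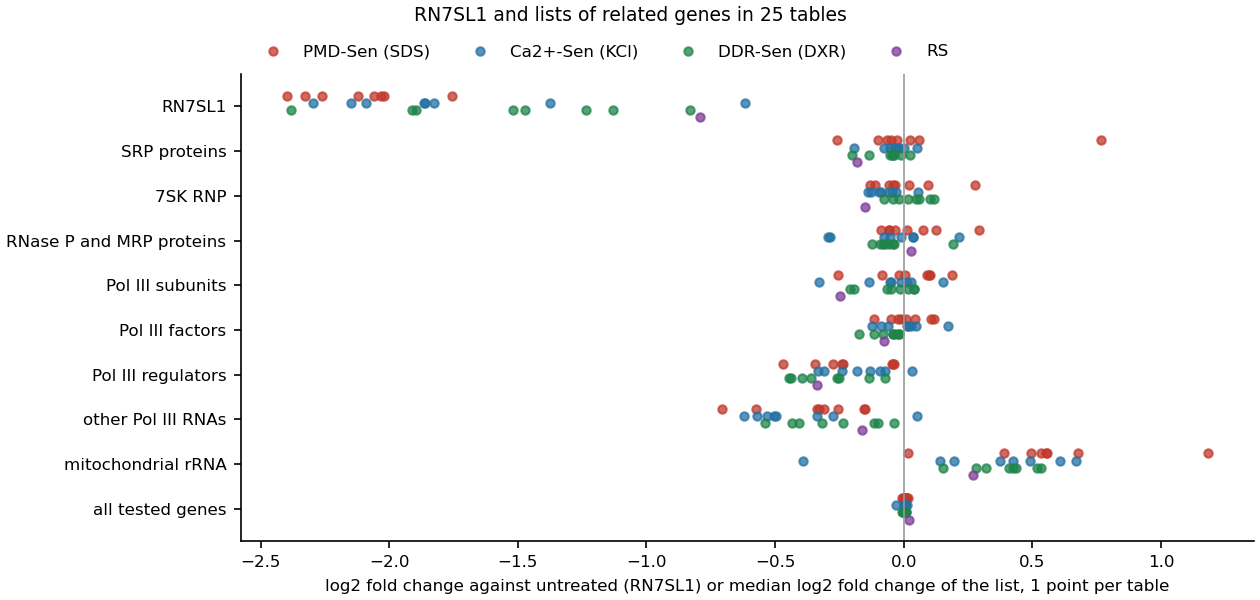
Log2 fold change against untreated (horizontal axis) of RN7SL1 and, for each list of related genes and all tested genes (vertical axis), the median log2 fold change, with 1 point per table coloured by PMD-Sen, Ca2+-Sen, DDR-Sen and RS. RN7SL1 lies between -2.40 and -0.62 in the 25 tables. The medians of the protein lists lie between -0.47 (Pol III regulators, PMD-Sen day 16) and 0.77 (SRP proteins, PMD-Sen day 0).

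Among 10949 other genes at a mean of 100 or more, those whose log2 level over the 26 groups was most like that of RN7SL1 were PDLIM3 (Pearson correlation 0.63), FGL2 (0.63), ZBTB14 (0.61), BMERB1 (0.61) and STIM2 (0.61). Without the untreated group these were 0.58, 0.65, 0.47, 0.47 and 0.58. The correlations are a description of groups that share 1 untreated pair.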

How the data were processed

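RNA-seq of WI-38 cells was analysed from 52 deposited tables, 25 of them distinct: in 24 conditions both files were the same table, and 4 files held the RS table. Each compares 1 group of 2 libraries with the same 2 untreated libraries. Per the labels, the authors' processing notes name Trim Galore, HISAT2, HTSeq, featureCounts and DESeq2 and the builds GRCh38 and hg38. The deposited level of a gene is the mean of its normalized counts over the 4 libraries compared, a signal at or above 0. Beside it the authors deposited the log2 fold change, its error and the p-value. Their test statistic and adjusted p-value were columns of the same comparison. The deposited log2 fold changes, errors and unadjusted p-values were used, since no values per library were given; the adjusted p-value of the authors was used only as an alternative. The line without a gene name in 23 tables was dropped. The paper calls the assay mRNA-seq; the selection step, annotation release and strand settings are not given in the sources used here.

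The members and lists were chosen with earlier results of these data known. The levels were put on 1 scale, that of the RS table, by abundant genes. Library sizes and whole reads per library were recovered from genes with 1 read and from the deposited mean and fold change. The untreated pair of RN7SL1 and of RMRP was the same in 10 of 10 tables printed to 15 digits. Recovered libraries are known as the deeper and the shallower of a group, not by replicate number. Depth was 15.4 and 18.8 M counted reads (M, 1e6) in the untreated libraries, 19.1 to 51.7 in PMD-Sen, 20.7 to 52.1 in Ca2+-Sen, 20.8 to 53.5 in DDR-Sen, and 45.2 and 58.0 in RS. Genes with a mean of at least 10 were tested, with Benjamini-Hochberg adjustment over them in each comparison and calls at an adjusted p under 0.05. Inducers, and days 16 and 0, were compared by the difference of their log2 fold changes, with an error whose square is the sum of both squared errors, which counts the untreated libraries' error more than once. This is a normal approximation on the errors of the authors' model, fitted across all genes with DESeq2.

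Named genes were the 5 members, CCDC107 and PARP2, the 3 tested genes of each list with the largest median in size, SSB and MAF1, and the 5 genes most like RN7SL1 by Pearson correlation of log2(level + 1). Others are marked where they are named. Alternatives changed the filter on the mean (100, or none), the size of change, the adjusted p-value, the scaling, the summing of RN7SL1 with RN7SL2, the error of the untreated libraries and the measure of likeness. The RMRP sequence and the positions came from GENCODE v29, in which 54389 of the 59408 symbols were found. Scripts ran on SciPy 1.17.1, NumPy 2.4.6 and Python 3.11.15, with tables in pandas 2.3.3 and plots in matplotlib 3.10.9, and were tested on simulated data. The sequences of the 7SL genes are not reported here.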

Additional observations from a re-analysis of the deposited data

Results flagged for a closer look

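RN7SL1 differed between inducers by a test of the difference itself in 9 comparisons on the same day. On the log2 scale DDR-Sen minus PMD-Sen was -0.63 on day 0, 0.74 on day 3, 0.90 on day 4 and 1.23 on day 6. Ca2+-Sen minus PMD-Sen was 1.51 on day 8. DDR-Sen minus Ca2+-Sen was 0.78 on day 3, 0.70 on day 4, -0.85 on day 8 and 0.63 on day 16. Day 16 minus day 0 of DDR-Sen, tested in the same way, was 1.15. Groups of 2 libraries are too small to look for a single library that stands apart.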

How the results depend on the processing

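No paired analysis was possible because the tables carry no value by labelled replicate, although the labels give replicates 1 and 2 in every group. With the error of the untreated libraries taken out of the difference, 14 of the 24 comparisons of RN7SL1 between inducers were called in place of 9; the 5 gained were DDR-Sen against PMD-Sen on days 1, 8 and 16 and Ca2+-Sen against PMD-Sen on days 0 and 2. Asking also for a change of 1 or more on the log2 scale left 42 of 158 pairs of gene and table called lower over all lists, and 15 of 129 called higher. By Spearman correlation 0 of the 5 genes most like RN7SL1 were the same; the 5 were then AC127502.2, RPS6KA2, TMEM130, TFPI and MCTP2. Leaving out 1 recovered library of the untreated or of the treated group gave a median log2 fold change of RN7SL1 between -1.94 and -1.83. Both scalings and the filter of 100 left the direction and call of each RN7SL1 comparison as they were. Summing RN7SL1 with RN7SL2 could not change a value, because RN7SL2 was at 0 throughout. RMRP was called in 0 tables with no filter or by the adjusted p-value of the authors. The alternatives that leave out a library, those of day 16 against day 0, and the scalings of the differences between inducers were chosen after seeing the data. RMRP is limited by its 11 and 4 untreated reads, and the untreated pair limits all comparisons with untreated cells.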
